A study of Mus musculus with 28 samples.

Results

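The genes described here are 10 feedback regulators of mitogen-activated protein kinase (MAPK) signalling: Dusp1, Dusp2, Dusp4, Dusp5, Dusp6, Dusp7, Dusp10, Dusp16, Spry1 and Spry2. They were taken by gene symbol from the 55450 genes in the RNA table. All 10 were found, and all 10 passed the filter on low values that was set on the mean of all 12 RNA libraries. All samples came from C10, a line of mouse Pre-B cells that derives from HAFTL, and every sample carried the same transgene, a rat C/EBPα joined to the hormone-binding part of the estrogen receptor. This fusion protein is held in the cytoplasm until β-estradiol is added, so that C/EBPα, a transcription factor of the myeloid lineage, can be switched on in B lineage cells. RNA was sequenced in 3 libraries before induction (0h) and in 3 libraries each at 1h, 12h and 48h after addition of 100 nM β-estradiol, 10 nM IL-3 and CSF-1, and promoter contacts were mapped by promoter Capture Hi-C (PCHi-C) at the same 4 time points. No library was induced without the cytokines, so the transgene and the cytokines cannot be told apart, and the work used a single cell line.

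MAPK cascades carry signals from growth factor and cytokine receptors through RAS and a chain of kinases to ERK, JNK or p38. Dual-specificity phosphatases of the DUSP family remove phosphate from both the threonine and the tyrosine that activate these kinases. Sprouty proteins act further up, between the receptor and RAF, and the genes of both families are well known to be switched on by the pathway that they restrain.

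The samples matched their labels. The summed level of 10 Pre-B markers was 332 to 359 at 0h and 44.0 to 52.3 at 48h, and that of 10 macrophage markers went from 9.28 to 10.97 up to 1066 to 1216, in the unit explained next. Markers of T cells, erythroid cells, fibroblasts and endothelium summed to at most 1.18 per list in any library. Levels are given as normalised TPM, the deposited TPM (a count of transcripts corrected for gene length and scaled to a fixed total) divided by a size factor for each library, because 2 genes of a ribosomal RNA locus took 70.3% to 82.9% of all TPM. On deposited TPM the median of all genes moved against 0h by 0.59 (1h), 0.34 (12h) and -0.18 (48h) on the log2 scale, and by 0.02, 0.07 and 0.07 after scaling. TPM corrects for gene length and keeps no sequencing depth, so the counting error behind a level is unknown.

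The 10 genes did not move as a block. Against 0h, 0 members were higher and 4 were lower at 1h, 3 were higher and 3 lower at 12h, and 4 were higher and 4 lower at 48h. Here a gene was called higher or lower when the limma test on log2(normalised TPM + 0.1) over all 16415 genes tested gave an adjusted p under 0.05. Over all genes tested, 5.42% were called higher and 4.92% lower at 1h. The shares were 16.0% and 14.5% at 12h, and 24.5% and 22.0% by 48h. Of the called genes, 52.4% (1h), 52.5% (12h) and 52.7% (48h) were higher after scaling, against 94.5%, 74.1% and 36.9% on deposited TPM. For the members, deposited TPM gave 3 higher and 3 lower at 1h, 4 and 2 at 12h, and 3 and 4 at 48h. At 1h, quantile normalization gave 1 higher and 4 lower, as did the replicate number as a block in the model. The absence of higher members at 1h therefore depends on the processing. These are bulk samples, in which fewer cells that make an RNA and less of it in each cell cannot be told apart.

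**Figure D1:**
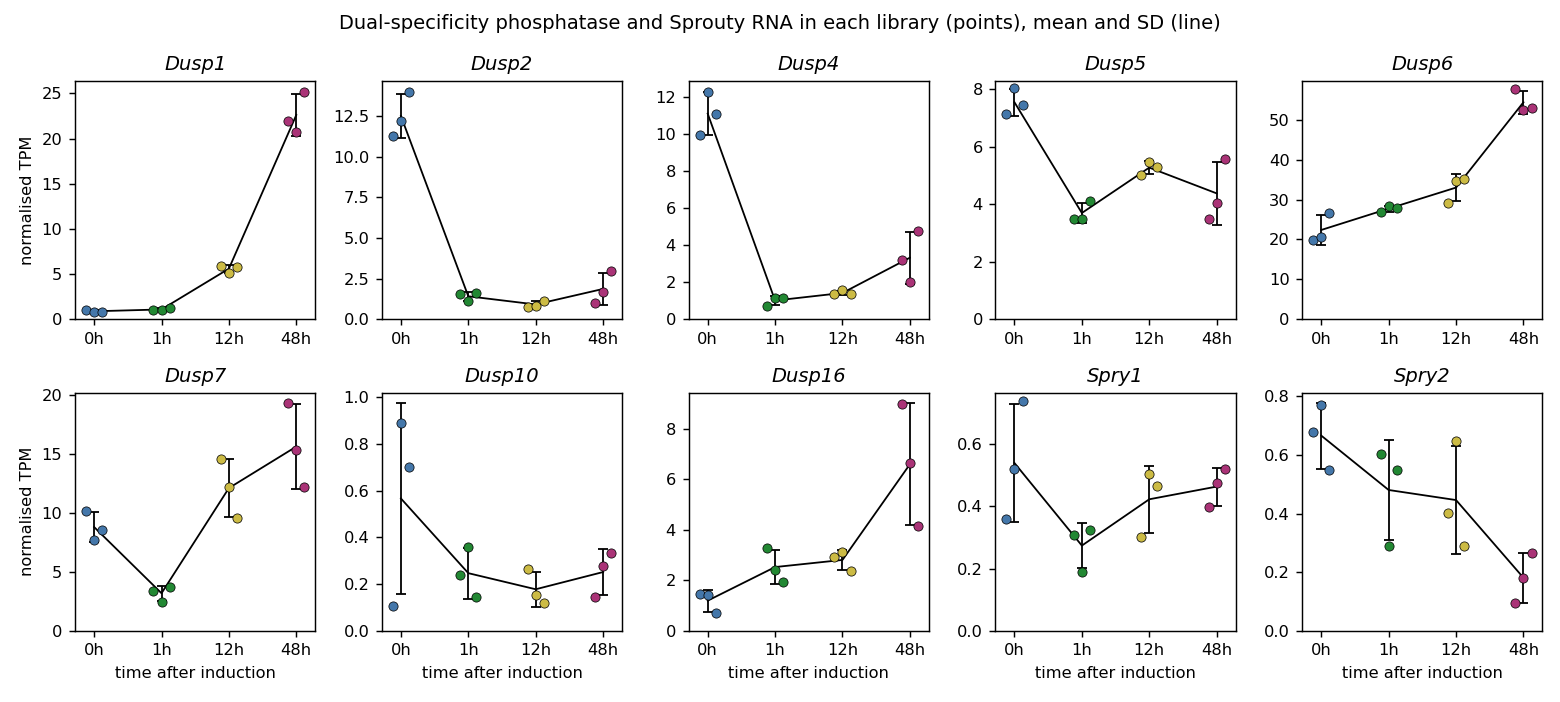
Normalised TPM (vertical axis, a separate linear scale from 0 in each panel) of the 10 genes in each of the 12 RNA libraries at 0h, 1h, 12h and 48h; points are libraries, and the line joins the means with bars of 1 SD (n = 3). Dusp1 climbed from a mean of 0.871 to 22.6, Dusp2 and Dusp4 dropped within 1h, and Dusp7 dipped at 1h and then passed its level at 0h.

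Dusp1, Dusp2, Dusp4 and Dusp5 encode the inducible phosphatases of the nucleus, and of these Dusp5 acts mainly on ERK. Their promoters are shown first, because 3 of them hold known response elements in the 250 bases before the gene start. In the sequences below, capitals mark the cAMP response element TGACGTCA or its shorter core TGACG, the E-box CACGTG, and the CArG box, the binding element of serum response factor. Matches on either strand are marked, so the core can also read CGTCA, as in Dusp5. They run 5′ to 3′ toward the start and are taken from RefSeq (GRCm38.p6), for Dusp1 at chr17:26508473-26508722 on the minus strand, for Dusp2 at chr2:127335909-127336158 on the plus strand and for Dusp5 at chr19:53528895-53529144 on the plus strand.
Dusp1: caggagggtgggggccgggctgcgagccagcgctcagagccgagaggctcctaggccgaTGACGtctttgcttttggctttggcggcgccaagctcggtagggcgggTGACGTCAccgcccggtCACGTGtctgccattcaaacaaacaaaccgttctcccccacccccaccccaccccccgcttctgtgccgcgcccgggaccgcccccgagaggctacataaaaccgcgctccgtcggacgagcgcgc
Dusp2: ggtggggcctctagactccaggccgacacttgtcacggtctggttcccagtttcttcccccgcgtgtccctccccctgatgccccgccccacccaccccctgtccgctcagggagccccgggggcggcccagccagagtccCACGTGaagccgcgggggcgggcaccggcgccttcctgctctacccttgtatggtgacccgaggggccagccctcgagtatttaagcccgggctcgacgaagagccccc
Dusp5: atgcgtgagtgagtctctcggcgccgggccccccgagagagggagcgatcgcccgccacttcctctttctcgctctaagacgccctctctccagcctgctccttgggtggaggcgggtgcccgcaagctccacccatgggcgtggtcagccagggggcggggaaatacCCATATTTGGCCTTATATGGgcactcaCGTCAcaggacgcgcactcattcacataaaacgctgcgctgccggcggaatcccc

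The Dusp1 promoter held the full cAMP response element at -143 to -136 and an E-box at -126 to -121, counted back from the base before the start (-1). The full element was in 1.55% of the 32851 promoters of the same length and in 1 of the 9 member promoters that matched by symbol, while no sequence was matched for Dusp4. The core TGACG, which lies inside the full element, was in 17.8% of all promoters and in those of Dusp1, Dusp5 and Dusp16. The E-box was in 6.02% of all promoters and in those of Dusp1 and Dusp2. Dusp5 had CArG boxes at -82 to -73 and at -72 to -63, an element found in 1.47% of all promoters and in no other member promoter searched. The same windows on both strands held no match in any of the 9 to the C/EBP motif TTGCNNAA (9.56% of all promoters), the AP-1 motif TGANTCA (6.75%), the ETS motif CCGGAAG (6.91%) or the TATA box TATAAA (12.4%). The PU.1 motif GAGGAAG, which was in 10.6% of all promoters, was in those of Dusp5 and Dusp6. The SP1 box GGGCGG was in 6 of 9 and in 32.7% of all promoters, and the members' windows were richer in G and C (56.4% to 77.2%) than the median promoter (52.4%). A match of letters is a description of the sequence, not evidence that a factor binds there.

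Dusp1, whose product acts on ERK, JNK and p38, was at about 1 normalised TPM in Pre-B cells and became the second most abundant member in the 48h cells. Its level was 0.999, 0.804 and 0.810 normalised TPM in the 3 libraries at 0h, and 1.03, 0.994 and 1.20 at 1h. It was 5.90, 5.09 and 5.80 at 12h and 22.0, 20.7 and 25.2 at 48h. The 0h and 1h libraries overlapped, while the 12h libraries lay above both and the 48h libraries lay above all the others. Dusp1 rose by 2.56 ± 0.15 (SE) on the log2 scale by 12h (adjusted p = 5.08e-07) and by 4.55 ± 0.15 by 48h (adjusted p = 2.27e-09), a 23.4-fold change. The change at 1h was 0.28 ± 0.15 (adjusted p = 0.283), although it passed the test on deposited TPM (0.89, adjusted p = 0.0103). The rises between 1h and 12h (2.28) and between 12h and 48h (1.99) were both called (adjusted p = 2.67e-06 and 4.46e-06).

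Dusp2 followed the opposite course. Its product is a phosphatase found mainly in haematopoietic cells. Its level was 11.3, 12.2 and 14.0 normalised TPM at 0h and 1.52, 1.09 and 1.61 at 1h. It was 0.778, 0.800 and 1.14 at 12h and 0.972, 1.67 and 2.94 at 48h. All 9 induced libraries were below all 3 at 0h. Dusp2 fell by 3.08 ± 0.33 on the log2 scale within 1h (adjusted p = 1.68e-04), by 3.66 ± 0.33 by 12h (adjusted p = 1.15e-05) and by 2.81 ± 0.33 by 48h (adjusted p = 3.19e-05). The 3 induced groups overlapped with one another, and the difference between 48h and 12h was 0.85 ± 0.33 (adjusted p = 0.0882). This difference passed the test without 48h replicate 1 (1.24, adjusted p = 0.0112) and with the replicate number as a block in the model (adjusted p = 0.0425).

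Dusp4, whose product acts on ERK and JNK in the nucleus, dropped as fast as Dusp2 and then recovered in part. Its level was 9.95, 12.3 and 11.04 normalised TPM at 0h and 0.732, 1.16 and 1.12 at 1h. It was 1.34, 1.55 and 1.34 at 12h and 3.20, 1.98 and 4.76 at 48h. Dusp4 fell by 3.36 ± 0.28 on the log2 scale within 1h (adjusted p = 3.31e-05), a 10.3-fold drop, and at 48h its log2 change from 0h was -1.79 ± 0.28 (adjusted p = 3.03e-04). No 48h library overlapped the 12h libraries, and the rise between them was 1.09 ± 0.28 (adjusted p = 0.0165). That late rise was not called without 12h replicate 1 (adjusted p = 0.0509), without 12h replicate 3 (adjusted p = 0.0550) or on deposited TPM (0.38, adjusted p = 0.352).

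Dusp5 showed a smaller loss. Its level was 7.13, 8.05 and 7.47 normalised TPM at 0h, 3.48, 3.50 and 4.11 at 1h, 5.03, 5.48 and 5.31 at 12h, and 3.49, 4.06 and 5.59 at 48h. Every induced library was below the 0h libraries. Dusp5 fell by 1.01 ± 0.17 on the log2 scale at 1h (adjusted p = 0.00332) and by 0.80 ± 0.17 at 48h (adjusted p = 0.00245). The drop of 0.51 ± 0.17 at 12h (adjusted p = 0.0422) was lost when any of the 3 libraries at 0h or at 12h, or 48h replicate 2, was left out, with an adjusted p of 0.0510 to 0.109. On deposited TPM the drops at 1h (-0.36, adjusted p = 0.245) and 12h (-0.18, adjusted p = 0.589) were not called.

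Dusp6 and Dusp7 encode cytoplasmic phosphatases that are selective for ERK. Dusp6 was the most abundant member at every time point, with no overlap with the next gene. Its level was 19.9, 20.5 and 26.7 normalised TPM at 0h and 26.9, 28.3 and 28.0 at 1h. It was 29.1, 34.7 and 35.3 at 12h and 57.8, 52.5 and 53.0 at 48h. After scaling the groups did not overlap, and each later group lay above the one before. The change from 1h to 12h was 0.25 ± 0.13 (adjusted p = 0.245), and -0.08 on deposited TPM (adjusted p = 0.785). In deposited TPM the libraries of 1h (37.1 to 43.3), 12h (31.0 to 47.8) and 48h (36.3 to 39.8) overlapped, so this order rests on the scaling. Dusp6 rose by 0.57 ± 0.13 on the log2 scale by 12h (adjusted p = 0.00823) and by 1.29 ± 0.13 by 48h (adjusted p = 1.30e-05), and the change at 1h was 0.32 ± 0.13 (adjusted p = 0.163). The change at 1h was called without 0h replicate 3 (0.45, adjusted p = 0.0444), under quantile normalization (0.53, adjusted p = 0.0316) and on deposited TPM (0.98, adjusted p = 0.00220). The rise of 0.72 ± 0.13 between 12h and 48h (adjusted p = 0.00257) was -0.02 (adjusted p = 0.946) on deposited TPM, so that its direction rests on the scaling.

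Dusp7 was the member with a clear dip and return. Its level was 10.2, 7.71 and 8.54 normalised TPM at 0h and 3.38, 2.47 and 3.71 at 1h. It was 14.5, 12.2 and 9.60 at 12h and 19.4, 15.3 and 12.2 at 48h. The 1h libraries lay below all others, the 12h libraries overlapped those at 0h, and the 48h libraries lay above those at 0h. Dusp7 fell by 1.45 ± 0.22 on the log2 scale at 1h (adjusted p = 0.00196) and rose by 1.89 ± 0.22 from 1h to 12h (adjusted p = 1.25e-04), where it differed from 0h by 0.44 ± 0.22 (adjusted p = 0.157). The gain of 0.81 ± 0.22 at 48h over 0h (adjusted p = 0.0112) was 0.40 (adjusted p = 0.141) on deposited TPM. It was 0.73 (adjusted p = 0.0605) when TPM were rescaled without the 20 most abundant genes. On deposited TPM the gain at 12h over 0h was called (0.78, adjusted p = 0.0134), so the time at which a gain over 0h was called depends on the scaling.

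Dusp10 and Dusp16 encode phosphatases that prefer JNK and p38 to ERK. Dusp16 had levels of 1.46, 1.42 and 0.691 normalised TPM at 0h and 3.26, 2.39 and 1.92 at 1h. It had 2.93, 3.11 and 2.37 at 12h and 8.99, 6.64 and 4.15 at 48h. All induced libraries were above those at 0h, and the 1h and 12h libraries overlapped. Dusp16 rose by 2.37 ± 0.33 on the log2 scale at 48h (adjusted p = 1.39e-04) and by 1.23 ± 0.33 at 12h (adjusted p = 0.0170). The 12h call was lost without 0h replicate 3 (0.90, adjusted p = 0.0655), 12h replicate 1 (1.19, adjusted p = 0.0537) or 12h replicate 2 (1.15, adjusted p = 0.0603). The change of 1.05 ± 0.33 at 1h (adjusted p = 0.0717) was called without 48h replicate 3 (adjusted p = 0.0444) and on deposited TPM (1.69, adjusted p = 0.00622). It was also called with the replicate number as a block in the model (adjusted p = 0.00884). Dusp16 was lowest in replicate 3 at every time point. The rise of 1.14 ± 0.33 from 12h to 48h (adjusted p = 0.0301) was called in 14 of 22 alternative runs. It was lost without any 1 of the 3 libraries at 12h (adjusted p = 0.0624 to 0.104). The same held without 48h replicate 1 (adjusted p = 0.111) or 48h replicate 2 (adjusted p = 0.0836). It was also lost on deposited TPM (0.41, adjusted p = 0.398).

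Dusp10 stayed under 1 normalised TPM in every library. It had 0.107, 0.891 and 0.703 at 0h, and 0.118 to 0.360 in the 9 induced libraries. The first 0h library lay below all the induced ones, while the other 2 lay above all of them. No difference was called, and the log2 changes at 1h, 12h and 48h were -0.71, -1.01 and -0.68, each with an SE of 0.55. Without 0h replicate 1 the changes at 12h (-1.73, adjusted p = 0.0113) and at 48h (-1.40, adjusted p = 0.0184) were called, so the result for Dusp10 was decided by that library.

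The Sprouty genes were low throughout. Spry1 had 0.359, 0.522 and 0.738 normalised TPM at 0h, 0.308, 0.190 and 0.324 at 1h, and between 0.300 and 0.519 in the 6 later libraries. No change of Spry1 was called, and the difference at 1h was -0.75 ± 0.31 (adjusted p = 0.152). Spry2 had 0.679, 0.771 and 0.548 at 0h, 0.288 to 0.603 at 1h, 0.288 to 0.647 at 12h, and 0.0956, 0.181 and 0.266 at 48h. The 48h libraries lay below all the others, and Spry2 fell by 1.48 ± 0.36 on the log2 scale against 0h (adjusted p = 0.00553). At levels this near to the added 0.1, a log2 change understates the change in TPM.

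**Figure D2:**
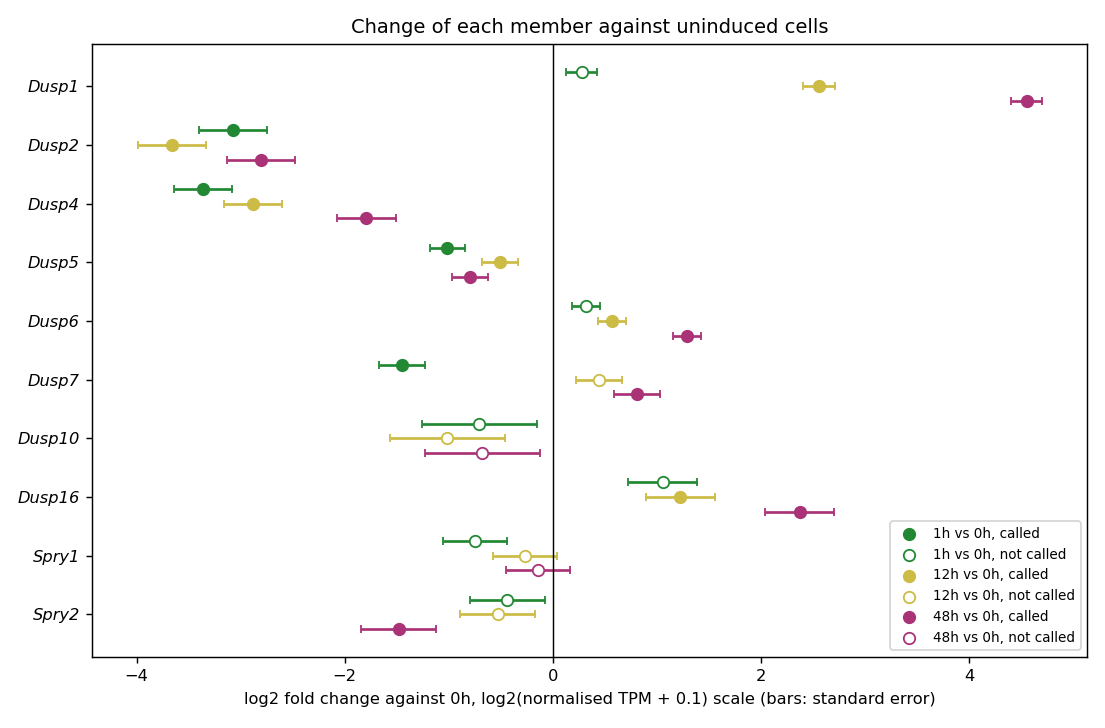
Log2 fold change of each gene at 1h, 12h and 48h against 0h, on the log2(normalised TPM + 0.1) scale; bars are the standard error of the limma fit, filled circles were called at an adjusted p under 0.05 and open circles were not. Dusp2 and Dusp4 lie at -1.79 or lower at all 3 time points, Dusp1 reaches 4.55 at 48h, and Dusp7 changes side between 1h and 48h.

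From 1h to 12h 2 members rose, Dusp1 and Dusp7, and 0 fell, where 11.3% of all genes tested were called higher and 8.77% lower. From 12h to 48h 4 members rose, Dusp1, Dusp4, Dusp6 and Dusp16, and 0 fell, against 10.5% higher and 11.9% lower over all genes. On deposited TPM the late step had other calls, with Dusp4, Dusp6 and Dusp16 not called, and Dusp5 (-1.02, adjusted p = 0.00393) and Spry2 (-1.42, adjusted p = 0.01002) called lower. The share of higher genes among all called genes went from 56.2% to 31.7% for 1h to 12h and from 47.0% to 11.4% for 12h to 48h when deposited TPM replaced the scaled values.

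The share of each gene in the family within a library does not depend on the scaling. Dusp2 and Dusp4 together made up 35.7% ± 1.7 (SD, n = 3) of the summed TPM of the 10 genes at 0h, and 5.79% ± 0.53, 3.73% ± 0.27 and 4.73% ± 2.03 in the libraries of 1h, 12h and 48h. Dusp6 alone made up 33.7% ± 3.3 at 0h and 66.7% ± 2.4, 53.1% ± 4.7 and 49.6% ± 0.98 in the 3 later groups. The share of Dusp1 was 1.33% ± 0.25 at 0h and 20.6% ± 2.2 at 48h. The libraries of 0h and 1h did not overlap in the shares of Dusp2 and Dusp4 or of Dusp6. The summed level of all 10 genes was 66.2 ± 4.7 normalised TPM before induction, dipped to 41.6 ± 0.98 after 1h, and was 62.2 ± 1.9 at 12h and 109.7 ± 6.3 by 48h. That sum does depend on the scaling, and in deposited TPM the means were 61.3 ± 2.3 (0h), 61.2 ± 4.1 (1h), 73.2 ± 9.6 (12h) and 76.5 ± 4.7 (48h), so the dip at 1h rests on the size factors. Spry1 and Spry2 together never exceeded 2.20% of the sum in any library.

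The order of the levels therefore changed. At 0h it ran from Dusp6 through Dusp2, Dusp4, Dusp7 and Dusp5 to Dusp16, Dusp1, Spry2, Dusp10 and Spry1, and the libraries of Dusp2 and Dusp4, of Dusp4 and Dusp7, of Dusp7 and Dusp5 and of Dusp16 and Dusp1 overlapped, as did those of the last 3 as neighbours. At 1h it ran from Dusp6 to Dusp5, Dusp7, Dusp16, Dusp2, Dusp1 and Dusp4, with Dusp5, Dusp7 and Dusp16 overlapping as neighbours, as did Dusp2, Dusp1 and Dusp4. At 12h it ran from Dusp6 to Dusp7, Dusp1, Dusp5, Dusp16, Dusp4 and Dusp2, where only the neighbours Dusp1 and Dusp5 overlapped. At 48h it ran from Dusp6 to Dusp1, Dusp7 and Dusp16, which did not overlap with one another, and then to Dusp5, Dusp4 and Dusp2, where each neighbour from Dusp16 on overlapped the next. The last 3 were Spry1, Dusp10 and Spry2.

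For the members with a mean of at least 1 normalised TPM, the most similar genes were found among 9192 genes at that level, by the root mean square difference of the centred log2 values over the 12 libraries. For Dusp1 these were Psap (0.261), which encodes a lysosomal precursor protein, Abca1 (0.300), a cholesterol exporter, and Ptafr (0.304), the receptor of platelet-activating factor. Dusp2 was most like Hoxb8 (0.348), Jakmip1 (0.380) and 2900026A02Rik (0.412), and Dusp4 was most like 2900026A02Rik (0.410), Foxo1 (0.412) and Hoxb8 (0.515). Egr2, a zinc finger transcription factor that ERK signalling induces, was the gene most like Dusp7 (0.232), followed by 2610203C22Rik (0.284) and Hpse (0.330). Dusp6 had Smad4 (0.147), Ddx17 (0.148) and Snx6 (0.157) nearest, and Dusp5 had Trim35 (0.165), Syvn1 (0.166) and Acaa2 (0.178). For Dusp16 they were Gm48541 (0.207), Gm48786 (0.210) and Gm48278 (0.243). The distance of each member from its own mean was 1.85 for Dusp1, 1.46 for Dusp2, 1.33 for Dusp4, 0.916 for Dusp16, 0.888 for Dusp7, 0.490 for Dusp6 and 0.410 for Dusp5 on the same scale, so a small distance says less for the last 2. All points share the same 12 libraries.

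The rest of the pathway gives the setting of these genes. For each list below, the shares over all genes tested were 24.5% called higher and 22.0% lower at 48h. At 1h they were 5.42% and 4.92%. Of 18 other dual-specificity phosphatases 9 were tested, and at 48h 1 was higher than at 0h and 3 were lower, with a median log2 change of -0.04 against 0.07 for all genes. Dusp12 fell by 1.85 on the log2 scale at 48h (adjusted p = 0.00155), and Styx, a pseudophosphatase, fell by 0.76 (adjusted p = 0.0478). Dusp3, a small phosphatase of ERK and JNK, had 4.45, 5.36 and 6.17 normalised TPM at 0h, 1.46, 1.53 and 2.58 at 1h and 4.27, 4.27 and 7.37 at 48h. It was called lower at 1h (-1.51, adjusted p = 0.00905), while at 48h it differed from 0h by -0.04.

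Of the other Sprouty and Spred genes 4 were tested, and 0 were higher and 2 lower at 48h. Spry4 had a higher mean than either Sprouty member at each time point. Its level was 3.35, 2.96 and 3.56 normalised TPM at 0h, 1.79, 1.67 and 1.54 at 12h, and 0.526, 0.516 and 0.506 at 48h. The 48h libraries of Spry4 overlapped those of Spry1 (0.398 to 0.519). It fell by 2.46 ± 0.16 on the log2 scale at 48h. Spred2 fell by 0.73 ± 0.14. Spred1 fell by 0.70 ± 0.13 at 1h and differed from 0h by -0.06 at 48h, and all 3 libraries at 1h and at 12h lay below those at 0h and at 48h.

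Upstream, 9 of 14 receptor genes were tested, and 5 were higher and 1 lower at 48h. The cytokine receptor subunit gene Csf2rb, shared by the receptors for IL-3, IL-5 and GM-CSF, had 1.99, 2.01 and 3.62 normalised TPM at 0h and 20.9, 20.9 and 25.7 at 1h, and rose by 3.15 ± 0.24 on the log2 scale in that hour. Csf1r, the receptor for CSF-1, was 0.157 to 0.671 at 1h and 8.06 to 8.62 at 12h, and Csf2rb2, the subunit specific to the IL-3 receptor, was 0.573 to 0.777 at 1h and 5.04 to 6.07 at 12h. Reads of the near-identical Csf2rb and Csf2rb2 may be split between them. Il7r, the Pre-B growth factor receptor, fell by 3.49 ± 0.35 at 1h.

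Of 33 genes of the RAS to ERK cascade 32 were tested, and at 48h 15 were higher and 4 lower, with a median log2 change of 0.44. At 1h 6 were higher and 3 lower. Over all genes tested the shares were 24.5% higher and 22.0% lower at 48h, and 5.42% and 4.92% at 1h. The adaptor gene Gab2 rose by 3.40 ± 0.27 on the log2 scale at 48h and by 1.85 ± 0.27 at 1h. Of 2 related kinases that ERK and p38 activate, Mknk1 rose and Mknk2 fell within 1h, as Mknk1 went from 2.24, 2.86 and 3.67 normalised TPM at 0h to 11.3, 13.2 and 11.4 at 1h, and Mknk2 from 32.0, 39.1 and 36.9 to 9.49, 10.3 and 9.92. Rasa2, a GTPase-activating protein that turns RAS off, rose by 1.72 ± 0.21 at 12h. Of 21 genes listed here under the JNK and p38 cascades 18 were tested, and 8 were higher and 1 lower at 48h. Map3k8, a kinase gene on this list that need not act in these cascades alone, rose by 3.09 ± 0.33 at 48h. Mapkapk2 rose by 1.57 ± 0.14 at 48h, and Map3k5 rose by 2.18 ± 0.24 at 12h. Mapk11 rose by 1.16 ± 0.23 at 12h, fell between 12h and 48h (-0.87, adjusted p = 0.0201) and differed from 0h by 0.30 at 48h (adjusted p = 0.330).

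Among 23 genes that ERK signalling is known to induce, 21 were tested, with calls in both directions. At 1h 4 were higher and 7 lower, with a median log2 change of -0.62, against 5.42% and 4.92% of all genes. At 48h 10 were higher and 6 lower, with a median of 0.56, against 24.5% and 22.0% of all genes. Fosb had 11.5, 10.7 and 12.4 normalised TPM at 0h and 0.494, 0.661 and 0.731 at 1h, and fell in that hour (adjusted p = 1.69e-06). Fosl2 had 0.0194, 0 and 0.0238 at 0h, and was 0.578, 1.17 and 0.784 at 1h and 5.98, 6.83 and 6.27 at 12h. Ier3 rose by 3.56 ± 0.32 at 1h, and Atf3 rose by 3.33 ± 0.25 at 48h, where it had 23.8, 15.4 and 16.1 normalised TPM.

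**Figure D3:**
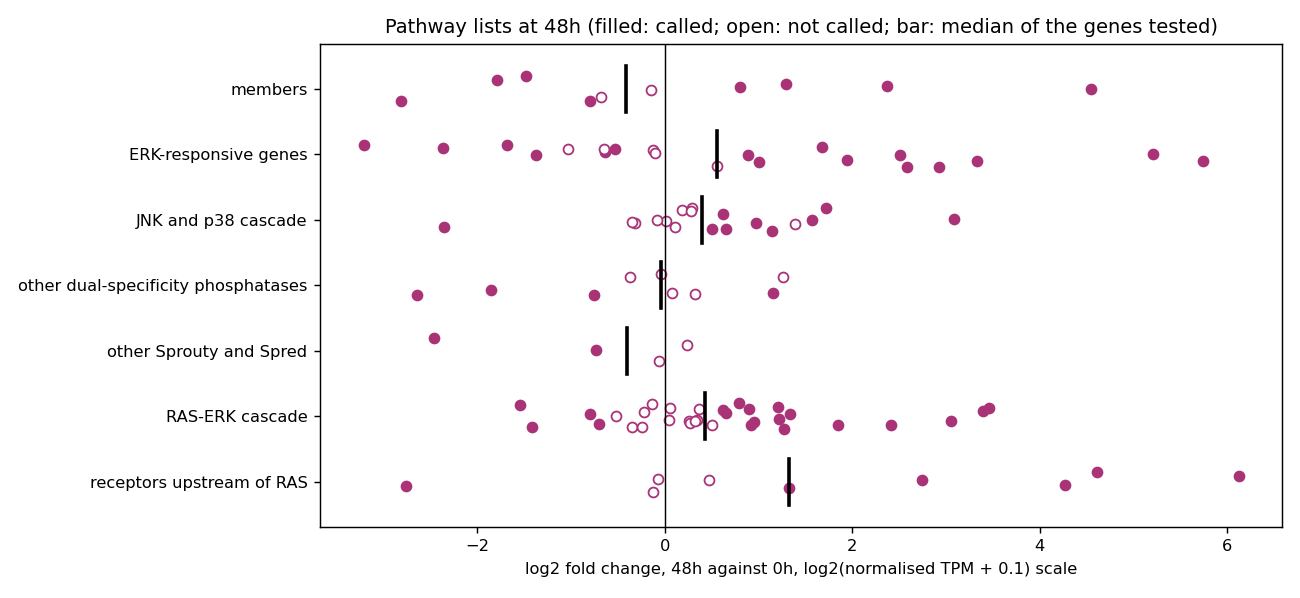
Log2 fold change at 48h against 0h of each tested gene of the 10 members and of 6 lists of pathway genes, on the log2(normalised TPM + 0.1) scale; filled circles were called, open circles were not, and the bar is the median of the genes tested. The members spread from -2.81 to 4.55 around a median of -0.41, while the medians of the RAS to ERK list and of the receptor list were 0.44 and 1.33.

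PCHi-C pulls down ligation products of fragments that hold promoters (baits) and lists the regions found in contact with each. There was 1 merged list from 2 replicates per time point, so no contact count has a replicate check and none was tested. Each of the 10 genes had 1 bait that held its start, and the lists held 258, 213, 249 and 305 contacts of these baits at 0h, 1h, 12h and 48h. The baits of Dusp5, Dusp6, Dusp10 and Spry1 also held the start of AC137853.2, Gm48089, 1700056E22Rik and Gm42922, in that order. Contacts of a shared bait cannot be assigned to 1 of its promoters. The methods state the same caller and score threshold for all time points, and the 4 lists were of similar size, with 131598 to 144072 contacts in all. The deposited 0h values are scores of 5 or more, while those in the later lists begin at 2 and their unit is not named, so only whether a contact was listed was compared, and whether the lists were deposited with the same threshold was not tested. Of 22120 genes with a bait, the median had 5 contacts in each of the 4 lists.

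**Figure D4:**
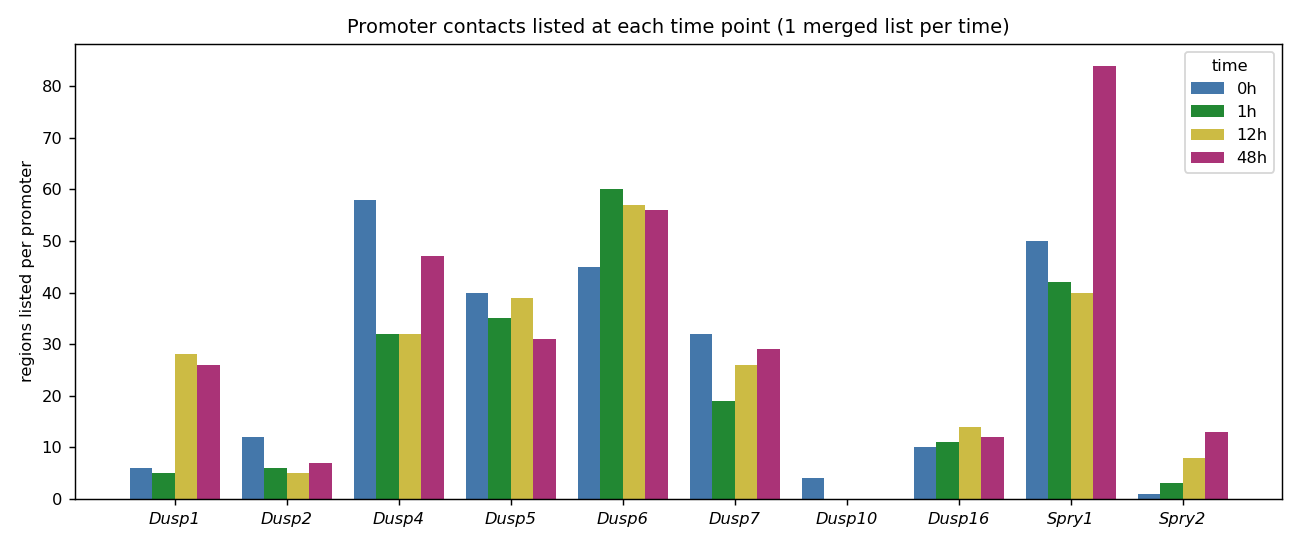
Number of regions listed in contact with the promoter bait of each of the 10 genes (vertical axis, from 0) at 0h, 1h, 12h and 48h; each bar is 1 merged list with no replicates. Dusp1 goes from 6 and 5 contacts to 28 and 26, Dusp4 from 58 to 32 and back to 47, and Spry1 from 40 at 12h to 84 at 48h.

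Dusp1 gained contacts between 1h and 12h, the interval in which its RNA first rose. Its bait, chr17:26505162-26518791, had 6 and 5 contacts at 0h and 1h, and 28 and 26 at 12h and 48h. Of all 30 regions listed at any time, 16 were listed at both 12h and 48h and at neither earlier time, and 3 were listed at all 4. The contacts of 0h and 1h lay 103 to 130 kb upstream, inside a stretch at chr17:26577009-26676982 that overlaps the coding genes Ergic1 and Atp6v0e, and this stretch held 6, 5, 21 and 22 of the contacts at the 4 times. Contacts within 50 kb of the bait were listed only at 12h (7) and 48h (4). At a 0h score of at least 10, 0 contacts of Dusp1 were listed.

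Dusp2 and Dusp4, whose RNA fell within 1h, had fewer contacts in the same interval. Dusp2 had 12 contacts at 0h and 6, 5 and 7 later, and 10 of the 12 had a listed region within 10 kb at each later time. Dusp4 had 58 contacts at 0h, 32 at both 1h and 12h, and 47 at 48h, all upstream of the gene, up to 704 kb away. Of its 58 regions at 0h, 30 were listed again at 1h (51.7%) and 38 at 48h (65.5%), or 89.7% and 94.8% when a region within 10 kb counts as the same. A stretch 191 to 234 kb upstream had 9 contacts at 0h and 2, 2 and 4 later, whereas one 312 to 348 kb upstream had 14, 10, 10 and 13.

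Dusp5 had 40, 35, 39 and 31 contacts, with its lowest count at 48h, and 31 of the 41 regions ever listed were listed at all 4 times. The mean of its RNA was lowest at 1h (3.70 normalised TPM, against 4.38 at 48h). Dusp6 had 45 contacts at 0h and 60, 57 and 56 later, on both sides of the gene. The increase lay in the stretch 118 to 236 kb downstream, with 13 contacts at 0h and 27, 25 and 27 later, while that 290 to 368 kb downstream had 16, 16, 14 and 15. Dusp7 had 32, 19, 26 and 29 contacts, with its lowest count at 1h, where its RNA was lowest. At 48h it had fewer contacts than at 0h, while its RNA was higher by 0.81 ± 0.22 on the log2 scale.

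Contact counts and RNA did not go the same way in all members, Spry1 and Spry2 among them, and a link between them was not tested. Spry1 had 50, 42, 40 and 84 contacts, and 27 of the 92 regions ever listed were listed only at 48h, while its RNA at 48h differed from 0h by -0.14 ± 0.31 on the log2 scale. Of these contacts 78 of the 84 at 48h lay downstream, and the stretch 199 to 376 kb downstream held 23, 19, 21 and 39. Spry2 had 1 contact at 0h and 3, 8 and 13 later, all downstream and up to 577 kb away, in a stretch where no coding gene was annotated under the contacts, while its RNA fell. Dusp16 had 10, 11, 14 and 12 contacts, while its RNA rose by 2.37 ± 0.33 on the log2 scale at 48h. Dusp10 had 4 contacts at 0h and was not listed at the later times.

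**Figure D5:**
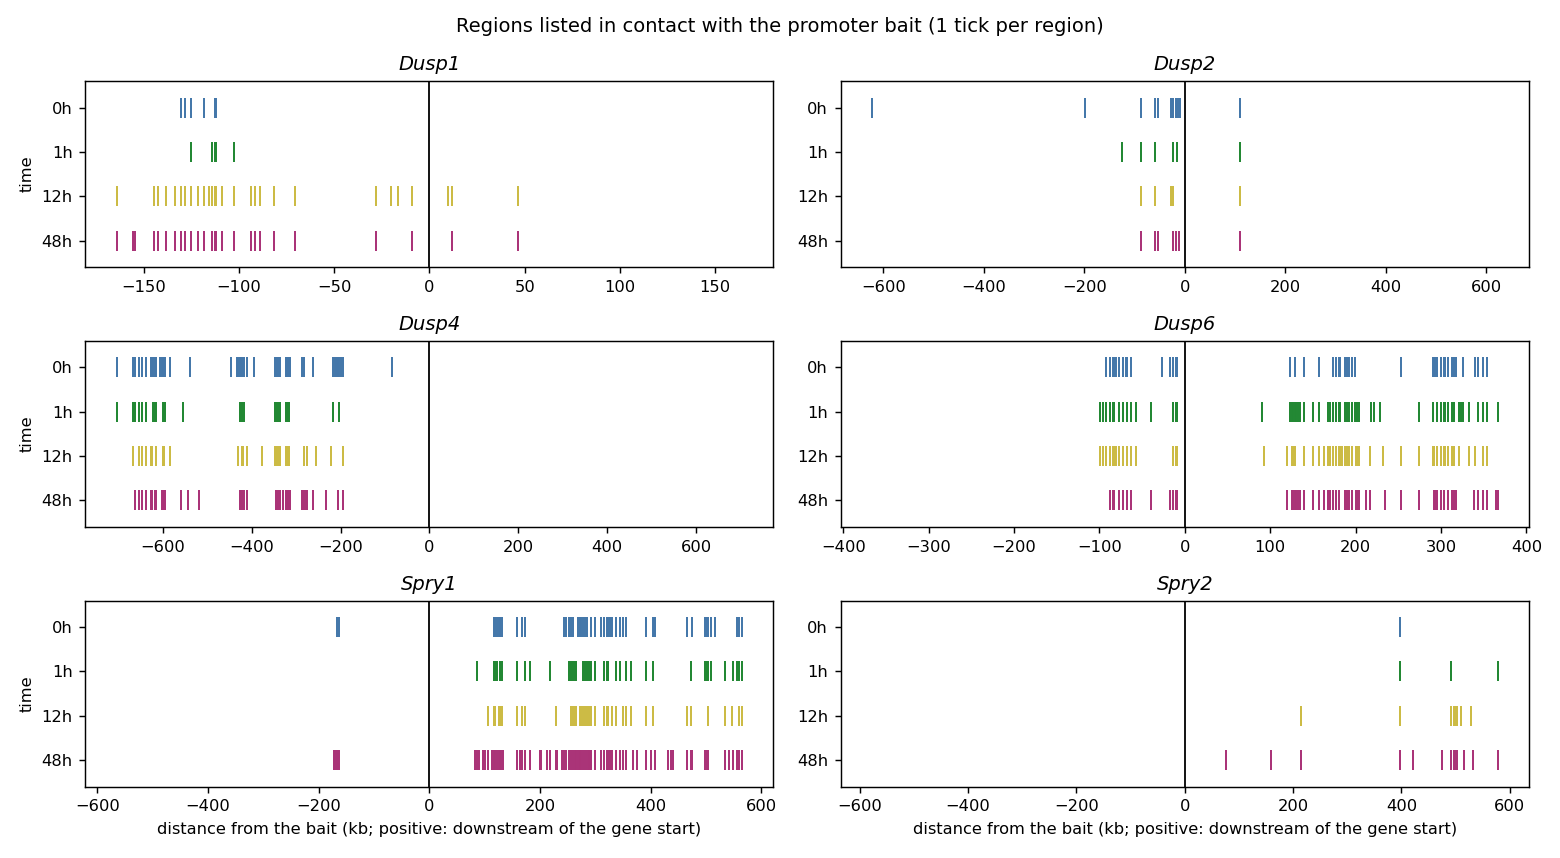
Distance in kb from the promoter bait (black line, positive values downstream of the gene start) of every region listed in contact with Dusp1, Dusp2, Dusp4, Dusp6, Spry1 and Spry2; 1 tick is 1 region, and rows are the merged lists of 0h, 1h, 12h and 48h. The ticks of Dusp1 fill the stretch upstream at 12h and 48h, those of Dusp4 all lie upstream, and those of Spry2 all lie downstream.

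Promoters that were listed with a member's promoter at 3 or more time points were few. For Dusp2 these were the promoters of Ciao1, Tmem127, Stard7, Gm10766 and Fahd2a, at all 4 times and 60.2 to 110 kb away. For Dusp4 they were those of Saraf and Mir6395, on 1 bait 653 kb away, and of Leprotl1, which was not listed at 48h. Dusp5 had Smndc1 and AC133451.1, on 1 bait 134 kb away, and Nutf2-ps1. Dusp7 had the most, namely Ppm1m, Twf2, Poc1a, Rpl29, Parp3 and Rrp9 at all 4 times and Glyctk, Pcbp4 and Gm28959 at 3. Dusp16 was listed with Cdkn1b, the cell cycle inhibitor p27, 124 kb away at all 4 times, and with Crebl2 and Gm44084 at 3. Dusp1 had Gm17218, Dusp6 had Gad1-ps, Spry1 had Gm26404, Gm22899 and Rpl21-ps10, and Spry2 had 4930449E01Rik, none of which is a coding gene. Dusp6 and Dusp7 each had 1 more such bait that held no gene start.

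The library kit does not mark strand, so a member cannot be told from an overlapping gene on the other strand. In the GENCODE M21 annotation Dusp2, Dusp4, Dusp6, Dusp7 and Spry2 overlapped no other gene. The antisense partners of Dusp5 (AC137853.2), Dusp16 (Gm36328), Dusp10 (1700056E22Rik) and Spry1 (Gm42922) reached at most 0.31, 0.46, 0.44 and 0.14 deposited TPM in any library, which for Dusp10 and Spry1 is near their own level. The longest Dusp1 transcript overlapped Ergic1 on the other strand, which reached 13.2 deposited TPM, where Dusp1 ran from 0.68 at 0h to 18.91 at 48h. On its own strand Dusp1 overlapped AC122252.1, which reached 0.61. How far reads of Ergic1 enter the Dusp1 level was not tested.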

How the data were processed

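RNA libraries (3 per time point) were made with a kit that does not mark strand. Per the labels and methods, the authors merged technical replicates, trimmed reads with Trim Galore 0.6.2, aligned them to mm10 with HISAT2 2.1.0 and deposited TPM per gene, for which RSEM is named. The authors' PCHi-C lists merge 2 replicates per time point. The deposited 0h list gives CHiCAGO scores, and the other lists give whole numbers of no named unit, used only for whether a contact was listed. Here TPM were divided by median-of-ratios size factors, and log2(value + 0.1) was fitted for genes averaging 0.1 TPM or more with limma 3.58.1 in R 4.3.3 (mean-variance trend, 12 libraries in 1 model, two-sided, Benjamini-Hochberg adjustment over 16415 genes). The steps were tested on simulated data. P-values measure the spread between libraries that the labels call biological replicates. A contact was counted once per fragment pair. Gene starts came from RefSeq, or from GENCODE M21 where RefSeq promoters had none. Members, gene lists and tests were chosen with earlier results of these data known. All members were named, together with up to 4 genes per list (mean of at least 1 normalised TPM, called against 0h with no overlap, largest change), 3 most similar genes per member at that level, and promoters in contact at 3 or more time points. Hi-C data were not used here.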

Additional observations from a re-analysis of the deposited data

How the results depend on the processing

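The 10 members and 5 comparisons gave 50 log2 fold changes. Of the 24 that were called, 17 were called under every alternative run, and of the 26 that were not called, 16 were called under none. With a log2 change beyond 2 also required, 2 members were called at 1h, 3 at 12h and 3 at 48h against 0h, 1 from 1h to 12h and 0 from 12h to 48h. When 1 library was left out, the members called from 12h to 48h ranged from 2 to 5. They were 2 when only the 6 libraries compared were fitted, by construction a fit with fewer samples. On deposited TPM, Dusp6 between 12h and 48h changed direction (-0.0242). Same-numbered replicates did not deviate together in every pair (correlations of -0.0109 to 0.257), although the pairs of replicate 3 ran from 0.0814 to 0.257. Of 12 libraries, 7 were most like one of their own number. The labels and methods do not tie the numbers across time points, so the main fit had no block. Whether same-numbered libraries shared a batch was not tested. With the replicate block 5 members were called at 1h, 3 from 1h to 12h and 5 from 12h to 48h, the added calls being Dusp16 at 1h (1.05, adjusted p = 0.00884), Dusp5 from 1h to 12h (0.51, adjusted p = 0.0431) and Dusp2 from 12h to 48h (0.85, adjusted p = 0.0425). The correlation was over 0.1 in 5 of 6 pairs of replicate 3, in 2 of replicate 1 and in 0 of replicate 2. At a score of at least 10 the 0h list held 87 contacts of the members. Of the 0h contacts 63.6%, 66.3% and 74.0% were listed again at 1h, 12h and 48h, and 90.7%, 91.5% and 91.9% when regions within 10 kb counted as the same, by construction the wider rule. TPM keeps no depth, so levels under 1 have unknown counting error, and merged contact lists have no replicates.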
